A study of Homo sapiens with 2 samples.

Results

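The cytosolic ribosomal protein genes encode the protein components of the 80S ribosome, and their acetylation at histone H4 lysine 5 (H4K5ac) was compared between FaDu cells in normoxia and in hypoxia. Members were taken by symbol from the RefSeq protein-coding genes on chromosomes 1 to 22: RPLP0, RPLP1, RPLP2, RPSA, and RPL or RPS with a number and at most 1 letter A or X. RPS6K kinases and symbols ending in L were left out. The rule found 73 of 19122 genes, 43 for proteins of the large subunit and 30 for proteins of the small subunit. They lie on 20 chromosomes, with 12 of them on chromosome 19.

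Each ribosome carries 1 copy of nearly every ribosomal protein, so these genes are transcribed strongly and in balance in growing cells. Many are short genes with introns that carry small nucleolar RNAs (snoRNAs), and many start transcription inside a run of pyrimidines. That run becomes the 5′ terminal oligopyrimidine (TOP) motif, through which mTOR signalling and LARP1 control translation of the mRNAs. H4K5ac is an acetylation of the histone H4 tail, usually found at the promoters and first nucleosomes of active genes.

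FaDu is an established head and neck cancer cell line. The series holds 1 chromatin immunoprecipitation library from normoxia and 1 from hypoxia (1% O2 for 18 h), read as 75 bp single ends. The target is H4K5ac in the sample labels but another acetyl mark in the design text. Knockdown of METTL4 appears in the culture protocol and is tied to neither library by a label. With 1 library per condition there is no replicate check and no test, and each difference is between these libraries. The deposited lists hold 120033 normoxia and 258195 hypoxia peaks, with read totals not given in the sources used here.

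Of 9 squamous epithelium marker genes, 8 had a gene-end peak in both lists and TP63 had one in hypoxia only. Of 7 markers of other cell types, COL1A1 and COL1A2 had a peak in both lists, CD3E, PECAM1 and CDH5 in hypoxia only, and PTPRC and ALB in neither. Marker levels could not be read from such calls, and the part of other cells in the results was not tested.

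The transcription start and strand were known for 58 members, from a RefSeq promoter table of GRCh38.p14. The other 15 members, RPL5, RPL8 and RPL23 among them, are described by their gene-end peaks without an upstream or downstream side. Starts are shown for 4 landmark genes and for members whose normoxia summit lay nearest to or furthest from the start, because the peaks described here are placed against this base. Each line holds the 60 bases before the start and the first 20 transcribed bases, 5′ to 3′ on the gene's strand. Capitals mark the unbroken run of C and T that includes the first transcribed base. RPLP0 encodes the core of the acidic stalk, RPSA a small subunit protein also known as a laminin receptor precursor, RPL11 a protein that binds MDM2, and RPS3 a protein at the mRNA entry site.
RPLP0 (chr12:120201092-120201171, minus strand): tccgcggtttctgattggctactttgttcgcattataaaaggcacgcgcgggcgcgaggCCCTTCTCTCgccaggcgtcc
RPSA (chr3:39406660-39406739, plus strand): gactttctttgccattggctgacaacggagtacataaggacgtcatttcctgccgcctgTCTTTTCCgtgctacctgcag
RPL11 (chr1:23691719-23691798, plus strand): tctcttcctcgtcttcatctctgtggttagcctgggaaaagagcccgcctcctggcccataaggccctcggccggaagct
RPS3 (chr11:75399458-75399537, plus strand): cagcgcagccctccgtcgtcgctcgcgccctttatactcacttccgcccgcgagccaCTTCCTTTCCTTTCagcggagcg
The normoxia summit lay nearest to the start in the next 3 genes, RPS29, RPS26 and RPL35A.
RPS29 (chr14:49598691-49598770, minus strand): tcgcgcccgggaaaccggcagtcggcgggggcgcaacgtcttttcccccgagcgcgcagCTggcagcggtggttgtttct
RPS26 (chr12:56041858-56041937, plus strand): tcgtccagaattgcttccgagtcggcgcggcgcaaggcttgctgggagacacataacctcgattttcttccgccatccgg
RPL35A (chr3:197950130-197950209, plus strand): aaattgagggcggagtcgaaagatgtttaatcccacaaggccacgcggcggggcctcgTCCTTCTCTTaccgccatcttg
It lay furthest from the start in RPS27A, RPL15 and RPS12. RPL6 was set aside here because its gene-end peak lies far from its tabulated start, as described further on.
RPS27A (chr2:55231843-55231922, plus strand): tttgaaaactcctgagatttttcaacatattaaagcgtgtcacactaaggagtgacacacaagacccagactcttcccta
RPL15 (chr3:23916485-23916564, plus strand): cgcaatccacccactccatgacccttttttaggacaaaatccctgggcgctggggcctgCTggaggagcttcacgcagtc
RPS12 (chr6:132814509-132814588, plus strand): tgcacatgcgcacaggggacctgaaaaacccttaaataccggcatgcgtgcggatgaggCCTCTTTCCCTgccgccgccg

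RPLP0, RPSA, RPS3, RPL35A and RPS12 show a pyrimidine run of 8 to 14 bases at the start, whereas the RefSeq starts of RPL11, RPS26 and RPS27A fall on a purine. Over the 58 members the first base was C in 44 (75.9%), against 11.2% of 15100 promoters of protein-coding genes in the table. A run of at least 5 pyrimidines covered the start in 42 members (72.4%), against 8.05% of all promoters and 8.70% of 69 promoters of mitochondrial ribosomal proteins. A run of at least 8 covered it in 38 members (65.5%), against 4.58% of all promoters. This is the TOP arrangement known for the family, and the mitochondrial ribosomal protein genes did not carry it at the same share.

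Other short motifs were searched on both strands in the 300 bases from 250 before to 50 after each start. The core of the hypoxia response element, ACGTG, was present in 19 of 58 members (32.8%) and in 23.6% of all promoters. The ETS-type motif CCGGAAG was present in 20 members (34.5%) and 14.4% of all promoters, and the YY1-type motif AAGATGGC in 6 members (10.3%) and 3.91%. The GC box GGGCGG was present in 31 members (53.4%) and 58.9% of all promoters. TATAAA, searched on the gene's strand from 40 to 15 bases before the start, was present in 2 members (3.45%) and 3.69% of all promoters. For the 69 promoters of mitochondrial ribosomal proteins, the shares were 27.5% for ACGTG, 42% for CCGGAAG, 29% for AAGATGGC and 60.9% for GGGCGG. The ETS-type and YY1-type motifs were thus more frequent in that set than in the members. A match is a stretch of letters only. The members with and without a feature were also compared in the median hypoxia to normoxia width ratio of their peaks, explained further on. It was 0.800 in the 42 members with a run of 5 pyrimidines and 0.835 in the 16 without. With ACGTG it was 0.794 and without it 0.806, in 19 and 39 members. With AAGATGGC it was 0.720 in 6 members, and 0.814 in the 52 without. In every one of these groups the median was under 1.

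A gene was called marked when a peak reached, by at least 1 bp, into a window of 1000 bp to each side of the low or the high end of its RefSeq span. All 73 members were marked in both libraries. The exact Clopper-Pearson 95% interval for 73 of 73 reaches down to 95.1%. The 73 are the whole set under the symbol rule, so such limits describe counting only and not variation between libraries. Over all 19122 genes, 70.2% had a gene-end peak in both lists. A further 11.7% had one in the hypoxia list alone and 1.09% in the normoxia list alone. No member was marked in 1 library only. A counting limit set at 3 counts of the total, a rule other than the exact interval, is 4.11% for 0 of 73. The hypoxia list is 2.15 times as long as the normoxia list, and the members showed no gain or loss of marking with it. In each list the q-value of every member's peak reached 10 or more on the −log10 scale, against 86.7% of genes marked in both for normoxia and 93.8% for hypoxia.

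The fold enrichment given for each peak by the authors was used to rank genes within 1 list. For each gene and library the gene-end peak with the highest fold was taken, and is called the highest peak. Fold in the normoxia list ran from 3.82 to 10.4 over the members, with a median of 6.04. In the hypoxia list it ran from 3.85 to 16.2, with a median of 8.45. These medians stood at percentiles 51.1 and 57.3 of the genes marked in both, so by fold the family sat in the middle of each list.

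By q-value the same peaks ranked high. The members' median −log10 q-value was 67.3 in normoxia (28.9 to 129) and 129 in hypoxia (37.9 to 252), at percentiles 83.8 and 87.9. The fold and p-value of a peak together give its pileup, the reads stacked at the summit, and its local background. The members' median pileup was 149 reads in normoxia and 235 in hypoxia, at percentiles 87.5 and 91.9, where all marked genes had medians of 79 and 112. Their local background was also high, with medians of 24.6 and 24.8 reads at percentiles 90.4 and 87.1, against 11.8 and 12.7 over all marked genes. The family thus combined tall pileups, a high solved background, a middling fold and a strong q-value in both lists. These values are not independent of each other, because pileup and background were both solved from the fold and p-value. No control library is given, so the background may hold the mark's own reads around the peak, which was not tested.

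**Figure D1:**
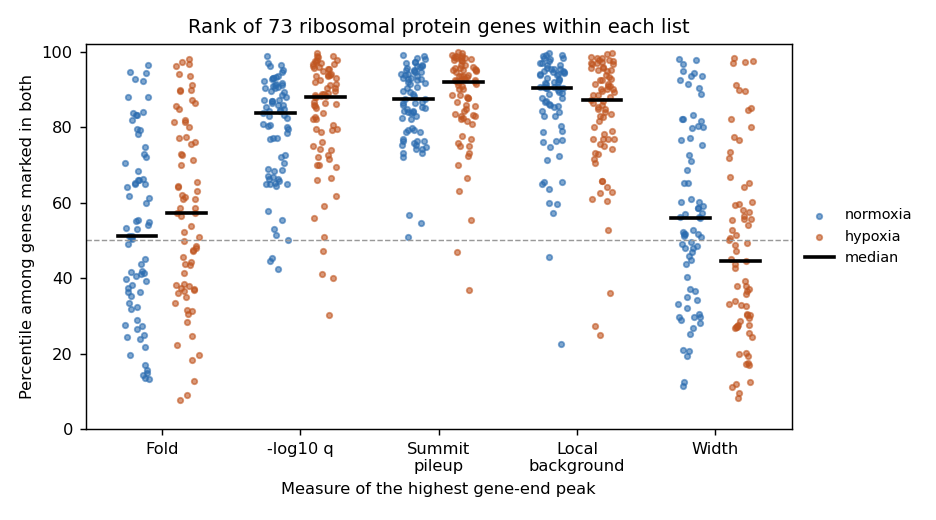
Percentile of each of the 73 members (points) among the genes marked in both libraries, for fold, −log10 q-value, summit pileup, local background and width of the highest gene-end peak, with normoxia in blue and hypoxia in orange and black bars at the medians. Median percentiles of fold are 51.1 and 57.3, whereas those of pileup are 87.5 and 91.9 and those of background 90.4 and 87.1.

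The 5 highest folds in normoxia belonged to RPL11 (10.4), RPS3A (9.80), RPL17 (9.73), RPL34 (9.46) and RPL15 (9.31). In hypoxia they belonged to RPL17 (16.2), RPL9 (15.4), RPL11 (15.1), RPS3 (14.8) and RPS3A (13.8). RPL11, RPL17 and RPS3A stood in both top sets. RPL11 is part of the 5S ribonucleoprotein particle with RPL5, and RPL17 lines the exit of the peptide tunnel. RPL5 had the highest q-value of all members in both lists, with a −log10 q-value of 129 in normoxia and 252 in hypoxia, on a pileup of 233 and 358 reads.

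At the low end in normoxia stood RPL28 (3.82), RPL23A (3.85), RPS12 (3.90), RPLP2 (3.96) and RPL3 (4.01). In hypoxia these were RPL28 (3.85), RPL13A (4.05), RPL3 (4.49), RPS2 (5.12) and RPLP2 (5.24). RPL3, a protein beside the peptidyl transferase centre, shows how a low fold can come with many reads: its pileup was 248 reads in normoxia and 305 in hypoxia. RPL28, RPL3 and RPLP2 were at the low end of both lists.

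The pileup was higher in hypoxia for 71 of 73 members (97.3%) and for 91.8% of all marked genes, with a median ratio of 1.5 against 1.43 over all marked genes. For 57 members (78.1%) the 95% Poisson interval of the hypoxia pileup lay above that of the normoxia pileup, against 38.8% of all marked genes, whose pileups were lower and intervals relatively wider. These intervals cover counting error only, and the pileups are not scaled for depth. RPL41, a tiny protein of the large subunit, went the other way, with 172 reads (147.3 to 199.7) in normoxia and 136 (114.1 to 160.9) in hypoxia. RPL26, a translational regulator of p53, had 125 reads (104.0 to 148.9) in normoxia and 90 (72.4 to 110.6) in hypoxia, but these highest peaks lie at opposite ends of the gene. The intervals of RPL41 overlap, and so do those of RPL26.

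Peaks at the members were narrower in the hypoxia list. The highest peak had a median width of 1058 bp in normoxia (490 to 1994) and 831 bp in hypoxia (440 to 1885). Over all genes marked in both the medians were 982 and 882 bp. Per gene, the median ratio of hypoxia to normoxia width was 0.822 (quartiles 0.705 and 0.912) over the members and 0.913 over all marked genes. The hypoxia peak was the narrower for 65 of 73 members (89.0%), and for 67.0% of all marked genes. Narrowing was thus the common direction in the whole list, and the members' share was larger. This holds for the highest peak alone: when all peak cover in the gene-end windows was summed, the median ratio was 0.944 over the members and 0.960 over all marked genes, and 25 members had more cover in hypoxia.

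The members had strong peaks in normoxia, so genes of like strength and width were also read. Among 2909 other genes with a normoxia −log10 q-value in the members' middle range (48.4 to 80.6), the median ratio was 0.874 and 81.9% were narrower in hypoxia. Among 5339 other genes with a normoxia width in the members' middle range (839 to 1356 bp), the ratio was 0.892 and 74.4% were narrower. The narrowest peaks allowed in the lists also differed, at 245 bp in normoxia and 215 bp in hypoxia. With these floors subtracted the members' median ratio was 0.810, and 12 members in place of 8 were wider in hypoxia.

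**Figure D2:**
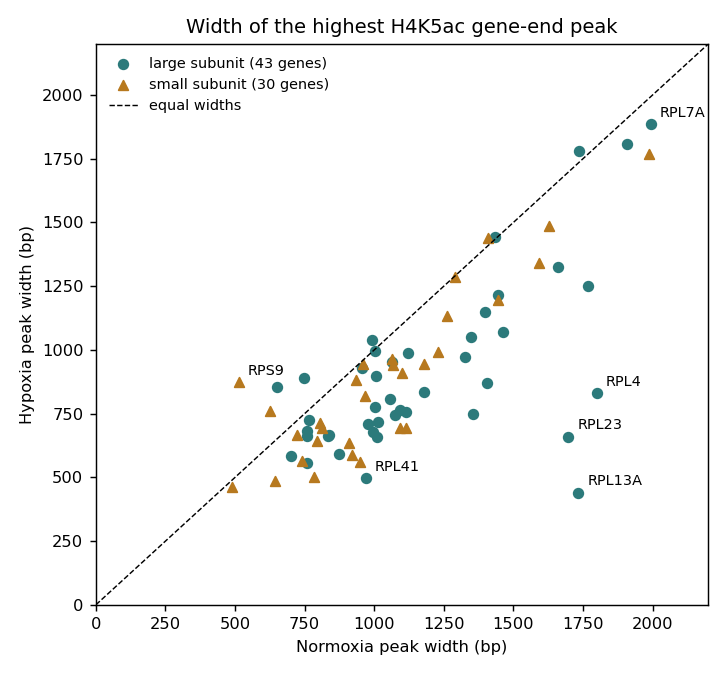
Width in bp of the highest gene-end peak in hypoxia (vertical axis) against normoxia (horizontal axis) for 73 members, with circles for large and triangles for small subunit genes and a dashed line at equal widths. 65 points lie under the line and 8 above it.

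The ratio was under 0.7 in 18 members and over 1.1 in 4. The lowest value was that of RPL13A, a protein released from the ribosome in the GAIT pathway, at 0.254 (1733 bp in normoxia and 440 bp in hypoxia), but its highest peaks do not overlap and the ratio compares different peaks. The hypoxia peak nearest to the start of RPL13A was 830 bp wide, a ratio of 0.479. Among members with overlapping peaks, RPL23, which binds MDM2, had the smallest ratio at 0.389 (1697 and 660 bp), and RPL4, which reaches into the peptide tunnel, at 0.462 (1800 and 831 bp). RPL41 had 0.511 (970 and 496 bp) and RPL37A 0.553 (1356 and 750 bp). In RPL13A, RPL23, RPL4 and RPL37A the normoxia peak lay under more than 1 hypoxia peak. The 440 bp peak of RPL13A was not one of these.

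Such a split occurred in 8 members (11.0%), the 4 above with RPL32, RPL27A, RPL38 and RPS16, and in 11.1% of all marked genes. The members' share was near that of all genes. No hypoxia peak of a member lay over more than 1 normoxia peak, which occurred in 7.62% of all marked genes. In total the members had 130 gene-end peaks in normoxia and 154 in hypoxia, with more in hypoxia for 29 members, fewer for 6 and the same number for 38. The shares with more and with fewer were 39.7% and 8.22% of the members, and 31.8% and 9.98% of all genes.

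The hypoxia peak was wider for 8 members. RPS9 stood first at 1.71 (513 bp in normoxia and 875 bp in hypoxia) and RPL26 had 1.32 (649 and 854 bp). RPL28 had 1.19 (749 and 888 bp) and RPL8 1.05 (993 and 1039 bp). RPLP2, RPS19 and RPL7 had ratios of 1.02, 1.02 and 1.01. For RPS9 and RPL26 the highest peaks of the lists do not overlap, so the ratio compares different peaks.

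Among the widest normoxia peaks were those of RPL7A (1994 bp), RPL6 (1907 bp), RPL4 (1800 bp) and RPL10A (1767 bp). Among the widest in hypoxia were those of RPL7A (1885 bp), RPL6 (1808 bp), RPLP2 (1779 bp) and RPS29 (1485 bp). RPL7A, RPL6, RPLP2, RPS29, RPL4 and RPL10A each have another protein-coding gene whose end window overlaps theirs: MED22 and SURF1 at RPL7A, PTPN11 at RPL6, PIDD1 at RPLP2, LRR1 at RPS29, SNAPC5 and ZWILCH at RPL4, and FANCE at RPL10A. A peak there can belong to either gene. Among the narrowest normoxia peaks were those of RPS25 (490 bp), RPS9 (513 bp), RPS13 (644 bp) and RPL26 (649 bp). The narrowest in hypoxia were those of RPL13A (440 bp), RPS25 (462 bp), RPS13 (484 bp), RPL41 (496 bp) and RPS18 (501 bp).

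The difference in width lay on the gene-body side. In 44 members the highest peaks overlapped and both covered the start, so each peak had an upstream and a downstream edge. The median upstream edge was 68.5 bp before the start in normoxia, given as −68.5, and −63.5 in hypoxia. The median downstream edge was 905.5 bp after the start in normoxia and 665 bp in hypoxia. Gene by gene, the upstream edge moved by a median of −2 bp and the downstream edge by −232.5 bp, where a minus means towards the start. At the median, the peaks began within a few bp of the same place and ended closer to the start in the hypoxia list.

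The downstream edge lay closer to the start in hypoxia in 42 of 44 members (95.5%), and by at least 100 bp in 33 (75.0%). Over 5833 genes of all kinds with such peaks these shares were 76.5% and 44.1%. Among 1659 other genes of like normoxia q-value with such peaks they were 85.0% and 51.0%. The upstream edge moved in by at least 100 bp in 3 members (6.82%), RPL37A, RPL4 and RPL21, against 23.8% of the 5833 genes. Over those 5833 genes the upstream edge lay at −370 bp in normoxia and −321 bp in hypoxia, and the downstream edge moved by −82 bp. At the median, then, the members' peaks over the start reached less far upstream than those of the 5833 genes, and their downstream edges differed more between the lists. Separate peaks further upstream or downstream are not part of this measure. A normoxia peak that is split in hypoxia, as in RPL38 and RPL27A, can therefore count as an inward move of the edge.

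The edge moved furthest in RPL38, a protein tied to translation of Hox mRNAs, from 1354 to 816 bp after the start. In RPL10A it moved from 1710 to 1202 bp, in RPL4 from 1011 to 577 bp, in RPS24 from 1061 to 628 bp and in RPL41 from 874 to 469 bp. The normoxia peaks of RPL38 and RPL4 lay under more than 1 hypoxia peak, and the edge is that of the highest one. In RPL38, 87.9% of the normoxia peak was still under hypoxia peaks. Cover by any peak of the second 500 bp after the start went from 500 to 390 bp in RPL38 and from 500 to 78 bp in RPL4. RPSA had peaks of 909 and 634 bp and RPL11 of 1074 and 743 bp. The 2 members whose edge moved outward were RPLP2, by 48 bp, and RPS19, by 11 bp. RPS19 is the gene most often mutated in Diamond-Blackfan anaemia. RPLP0 hardly differed, at 1003 bp in normoxia and 996 bp in hypoxia.

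**Figure D3:**
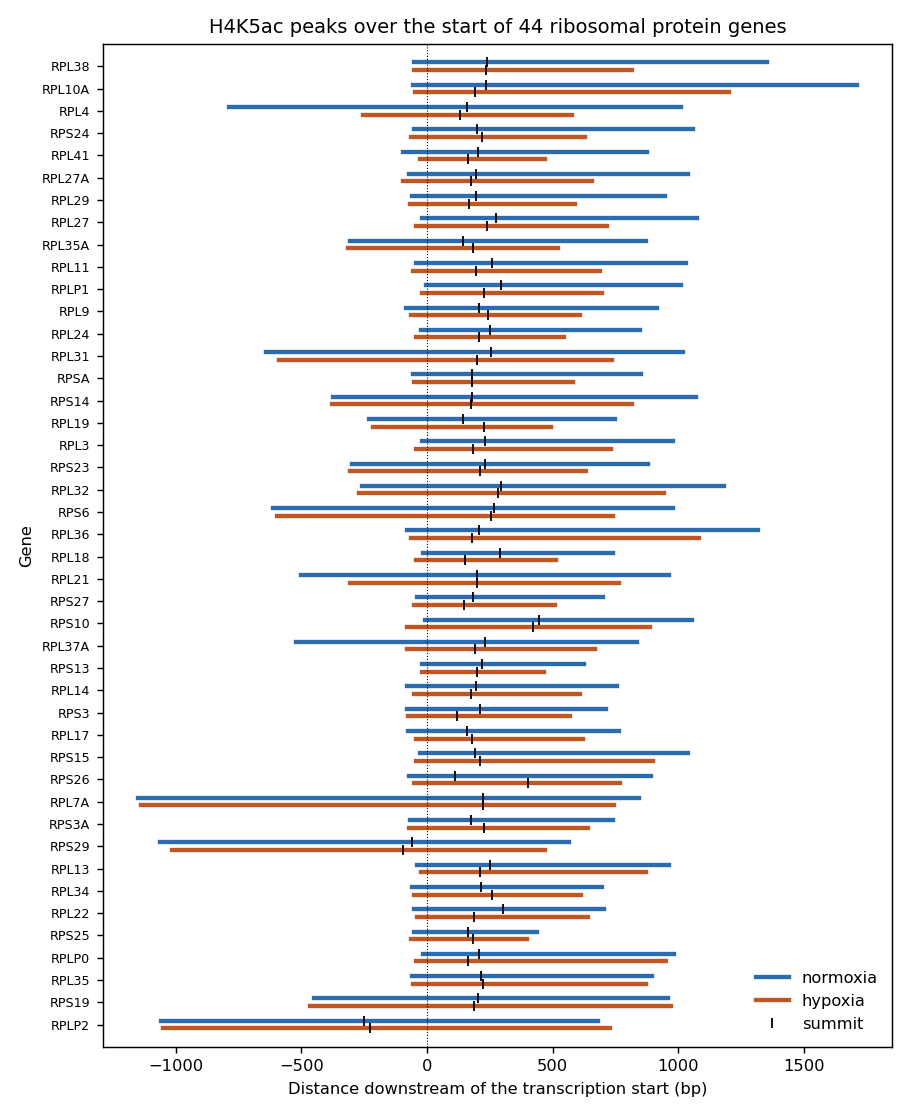
Extent in bp from the transcription start of the highest peak in normoxia (blue) and hypoxia (orange) for the 44 members whose peaks cover the start, with ticks at summits and genes ordered by the move of the downstream edge. Left ends differ by under 100 bp in all but 3 genes, and 42 of the orange bars end closer to the start than the blue ones.

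Cover by any peak gave the same picture without choosing 1 peak per gene. In the 58 members, peaks covered a mean of 415 bp of the 1000 bp upstream of the start in normoxia and 409 bp in hypoxia. They covered 482 and 481 bp of the first 500 bp downstream. In the second 500 bp the mean cover was 371 bp in normoxia and 222 bp in hypoxia, and from 1000 to 2000 bp it was 137 and 90.9 bp. For all 10894 marked genes with a start the 1000 bp upstream had 449.6 and 427.0 bp, and the second 500 bp had 254 and 210 bp. At 750 bp after the start, 74.1% of members had a peak in normoxia and 39.7% in hypoxia, against 50% and 40.3% of all these genes.

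Cover of the second 500 bp was at least 100 bp lower in hypoxia in 36 of 58 members (62.1%). The share was 26.7% over all genes and 34.7% among the other genes of like normoxia q-value. Normoxia cover there was also higher in the members, with a median of 418 bp against 258 bp over all genes. Restricted to genes with at least 250 bp of normoxia cover there, the share was 65.9% of 44 members and 38.4% of 5585 genes. It was 55.6% of 36 mitochondrial ribosomal protein genes, whose median change of −157.0 bp was near the members' −145.0 bp. RPL11 went from 500 to 188 bp, RPS27, a zinc-finger protein of the small subunit, from 202 to 12 bp, and RPL19 from 248 to 0 bp. The 2 members with at least 100 bp more cover were RPL28 (312 to 419 bp) and RPS28 (161 to 276 bp). RPL10A, RPL36 and RPS27A were covered over all 500 bp in both lists.

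**Figure D4:**
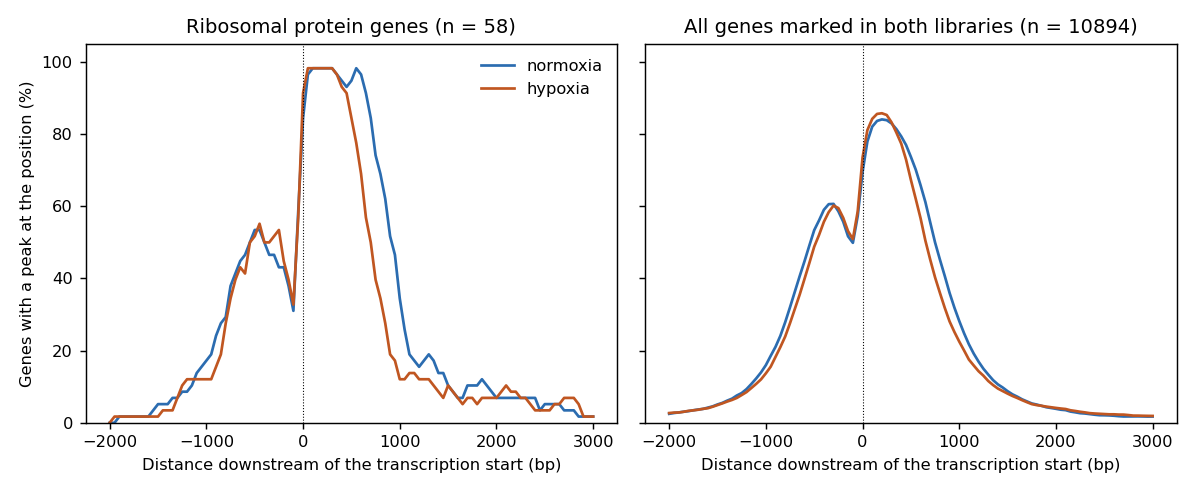
Percent of genes with a peak at each position, in bp from the transcription start, for 58 members (left) and 10894 genes marked in both libraries (right), with normoxia in blue and hypoxia in orange. The member curves are equal at 98.3% from 100 to 300 bp and differ most further downstream, with 74.1% in normoxia and 39.7% in hypoxia at 750 bp. Before the start they differ by less, with 43.1% and 53.4% at −250 bp.

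Summits lay just inside the genes. The median summit of the highest peak was 209 bp after the start in normoxia and 195 bp in hypoxia over the 58 members. It fell from 100 to 300 bp after the start in 45 members (77.6%) in normoxia and 46 (79.3%) in hypoxia. Over all genes, whose highest peak can lie at the far end of a long gene, the shares were 37.4% and 39.6%. They were 64.2% and 55.2% for 67 mitochondrial ribosomal protein genes, and 66.7% and 75.0% for 12 translation genes with TOP mRNAs. For 16 ribosome production genes the share was 56.2% in each list. Where the highest peaks overlapped, in 69 members, the summits were a median of 36 bp apart, and 45 bp over all genes. They were within 50 bp of each other in 47 of 69 members (68.1%), against 53.9% of all genes.

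The largest shift was in RPS26, a protein at the mRNA exit channel and a frequent Diamond-Blackfan anaemia gene, whose summit lay 113 bp after the start in normoxia and 401 bp in hypoxia. RPS27A, which is made as a ubiquitin fusion, had summits at 1011 and 1166 bp, and RPL18 at 292 and 152 bp. RPL22, whose loss is seen in T-cell leukaemia, had them at 304 and 188 bp. RPL37 also stood among the 5 largest shifts, with no start in the promoter table. RPSA kept its place, at 180 and 181 bp, and RPL7A did too, at 223 bp in both.

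**Figure D5:**
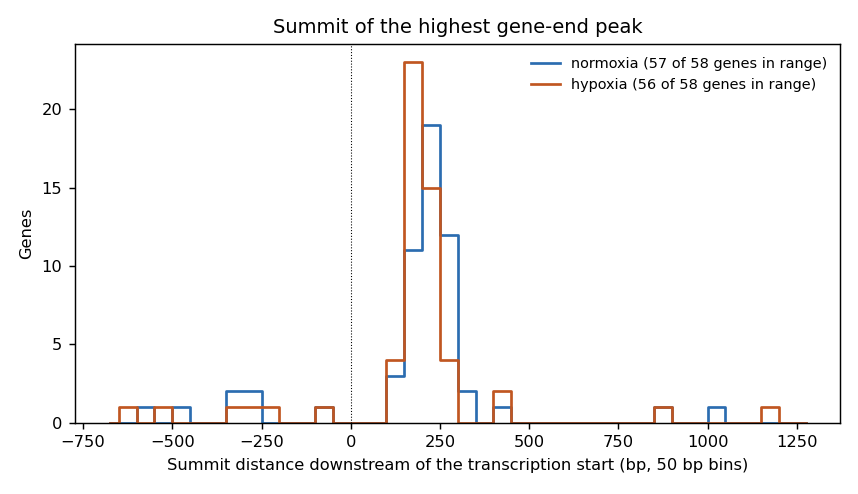
Number of members by the distance in bp (50 bp bins) of the highest peak's summit from the transcription start, with normoxia in blue and hypoxia in orange. Most summits lie between 100 and 300 bp after the start, 45 of 58 in normoxia and 46 of 58 in hypoxia.

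The highest peaks did not overlap between the lists in 4 members. In RPL13A the summit was 270 bp after the start in normoxia and at −525 bp in hypoxia, and in RPS18 at −451 and 171 bp. In RPS9 it was at −304 and 148 bp. In RPL26 it was at 209 bp in normoxia and at 6597 bp, the far end beside KRABD2, in hypoxia. The peak nearest to the start of RPL26 was still present in hypoxia, with its summit at 212 bp and a width of 477 bp. In RPL13A the nearest hypoxia peak had its summit at 207 bp and a width of 830 bp. All 4 genes had peak cover after the start in both lists, and a different gene-end peak had the highest fold, which for RPL26 lies at the far end of the gene.

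Some members had the summit of their highest peak upstream in both lists: RPS12 at −576 and −635 bp, RPS28 at −341 and −288 bp, RPS21 at −298 and −308 bp, RPLP2 at −251 and −226 bp, and RPS29 at −59 and −96 bp. The highest peaks of RPLP2 and RPS29 also covered the start in both lists. RPS28 lies beside KANK3 and NDUFA7, RPS21 beside CABLES2, RPLP2 beside PIDD1 and RPS29 beside LRR1. RPL15 had its summits at 884 and 862 bp. RPL6 is a special case: its gene-end peak lies by the high end of its span, where PTPN11 is the neighbour, with summits at −7889 bp from the tabulated start in normoxia and −7831 bp in hypoxia. Inside the gene, 2096 and 2054 bp after that start, both lists hold another peak of 912 and 915 bp with folds of 10.4 and 16.4. The gene-end widths given for RPL6 therefore do not describe that inner peak.

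The 2 subunits were also set side by side. The median width ratio was 0.780 for 43 large and 0.851 for 30 small subunit genes, and the median move of the downstream edge was −249 bp in 29 large and −160 bp in 15 small subunit genes. The 12 members on chromosome 19 had lower folds, with medians of 5.06 in normoxia and 6.78 in hypoxia against 6.24 and 8.77 for the other 61. Of those 12, 8 (66.7%) were narrower in hypoxia, against 57 of the other 61. All 942 marked genes on chromosome 19 had median folds of 5.57 and 6.78, and 65.1% were narrower, so the 12 members were near the share of their chromosome.

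The introns of 27 members carry 58 snoRNAs in the annotation. The median width ratio was 0.806 in these hosts and 0.829 in the other 46 members. For 34 members the end windows overlap those of another protein-coding gene, and their ratio was 0.847 against 0.780 in the 39 standing alone. Cover of the second 500 bp differed by a median of −174 bp in members standing alone and −94 bp beside a neighbour. The difference was thus larger in members with no protein-coding neighbour in these windows.

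Genes of related function were set beside the family from lists. The 4 X-linked ribosomal protein genes were marked in both lists, with width ratios of 0.964 for RPS4X, 0.391 for RPL10 and 0.672 for RPL39, and widths of 1024 and 1127 bp for RPL36A. FAU, made as a fusion with a ubiquitin-like protein, was marked in both (692 and 638 bp). Of 8 paralogues, 6 were marked in both, among them RPL22L1 (2237 and 1469 bp) and RPL7L1 (1365 and 529 bp). RPL10L was marked in hypoxia only. RPL26L1 had no peak at its span ends in either list, but both hold peaks soon after its tabulated start. In normoxia there were 2, of 861 and 956 bp, with summits at 349 and 911 bp and folds of 5.85 and 5.88. In hypoxia 1 peak of 1569 bp lay over both, with its summit at 424 bp and a fold of 6.71.

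All 17 translation genes with TOP mRNAs were marked in both lists, 16 of them narrower in hypoxia, with a median ratio of 0.849. The elongation factor EEF2 had 1896 bp in normoxia and 739 bp in hypoxia, and the ribosome-bound scaffold RACK1 had 1459 and 750 bp. EEF1G was the exception, with 720 and 765 bp. In the 12 of them whose peaks cover the start, the downstream edge moved in by at least 100 bp in 10 (83.3%). These TOP genes showed the same form of difference as the ribosomal proteins, and no test of likeness was made.

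Of 21 genes for ribosome production, 19 had peaks in both lists, and PES1 and BYSL had one in hypoxia alone. 15 of the 19 were narrower in hypoxia, with a median ratio of 0.824. Of 77 mitochondrial ribosomal protein genes, 74 had peaks in both lists. MRPL24 had one in normoxia alone, MRPL44 in hypoxia alone, and MRPL23 had none. Their highest folds were those of MRPS5 (12.3), MRPL3 (11.7) and MRPS9 (10.0) in normoxia and MRPL3 (21.6), MRPS5 (17.9) and MRPS9 (15.7) in hypoxia. Of the 74, 59 (79.7%) were narrower, with a median ratio of 0.846.

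Mitochondrial ribosomal protein peaks reached further upstream. In 45 of these genes with peaks over the start, the upstream edge lay at −438 bp in normoxia, against −68.5 bp in the 44 cytosolic genes. Their downstream edge moved by −202 bp, and by at least 100 bp inward in 29 of 45 (64.4%). The mitochondrial set thus showed shorter downstream reach in hypoxia too, with an upstream edge further from the start.

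Ribosomal protein genes have many processed copies, and reads in their exons can be shared with them, so cover in exons is uncertain. Of 1914 annotated ribosomal protein pseudogenes, 176 (9.2%) had an end peak in both lists and 1332 (69.6%) had none. The hypoxia list alone gave a peak at 352 (18.4%) and the normoxia list alone at 54 (2.82%). How reads with several matches were counted is not given in the sources used here, and the part of such reads in the results was not tested.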

How the data were processed

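H4K5ac ChIP-seq was available from 2 FaDu libraries, normoxia replicate 1 and hypoxia replicate 1. The authors deposited 1 peak list per library, with hg38, MACS2 and SICER named per the submitters' processing notes. Their versions and settings, a control library and the depth were not given in the sources used here. Per the file layout, the deposited lists give peak positions and summit offsets, an integer score, a fold ratio, and −log10 p and −log10 q-values.

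Gene spans, starts and sequences came from RefSeq tables of GRCh38.p14, the assembly of hg38. Genes were joined to peaks by overlap of at least 1 bp with 1000 bp windows at both span ends, and 1 highest-fold peak was taken per gene and library. Pileup and background were solved from the deposited fold and −log10 p-value, taking fold as (pileup + 1) / (background + 1) and p as a Poisson tail. A whole pileup within 0.01 was found for 100.0% of gene-end peaks in both lists. Scripts used Python 3.11.15, numpy 2.4.6, pandas 2.3.3 and scipy 1.17.1 and were tested on simulated data.

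The members, comparison lists and alternatives were chosen with earlier results of these data known, and the edge, cover, pileup, promoter and pseudogene measures were added after the lists were seen. Named genes are the 5 highest and lowest members by fold, width and width ratio, the 5 largest summit shifts, members whose peaks do not overlap, list genes not marked in both, and the 3 mitochondrial ribosomal protein genes with the highest fold per list. Other genes named with values were chosen after their values were seen. Some genes that the rule names are not reported here by name. No score was used beyond the unit check. The comparison lists are X-linked ribosomal proteins, FAU, paralogues, TOP translation genes, ribosome production genes and mitochondrial ribosomal proteins.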

Additional observations from a re-analysis of the deposited data

How the results depend on the processing

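Of 62 recomputed values, 56 stayed the same by the rule used, 6 moved and 0 reversed. Counts had to stay within 1.5 times the reported count or share, and medians and means within a 95% interval over the members. A reversal could be scored only for the edge move and the cover change. Part of the 56 could not have moved. The members' highest peaks had −log10 q-values no lower than 28.9 in normoxia and 37.9 in hypoxia, so a cutoff of 10 removed none. Their marking, widths, summits and edges were thus fixed under that cutoff. Widening the window to 2000 bp could lose no marked member. With equal list lengths the width ratio (0.822), wider members (8) and summit medians were also unchanged. The tally of 56 therefore overstates how far the results were tested. When peaks under 10 on the −log10 scale of q were dropped, members with a normoxia peak under more than 1 hypoxia peak fell from 8 to 3. With summed cover of the gene-end windows in place of the highest peak, the median width ratio was 0.944 and 25 members had more cover in hypoxia. Over all marked genes this ratio was 0.960, and the members' median percentile was 46.2, so by summed cover the members were near all genes. Without members beside another gene, the mean change of cover in the second 500 bp was −189.4 bp, against −149.5 bp over all 58. Ranking by q-value in place of fold gave median percentiles of 83.8 in normoxia and 87.9 in hypoxia. At the transcription start alone, 57 of 58 members were marked in both, all but RPL6. The edge and cover results, and the restriction to overlapping peaks (median ratio 0.822), were added after the data were seen. No paired analysis was possible because each condition has 1 library. Depth is unknown, and with 1 library per condition no difference can be set against replicate spread.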
